A study of Mus musculus with 18 samples.

Results

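Periostin (POSTN) and 9 other genes for secreted matrix proteins were followed through RNA-seq of 2 mouse mammary tumour cell lines, with knockout (KO) pools of *Kmt2c* or *Kmt2d*. The 10 genes were TNC, SPARC, SPARCL1, THBS1, THBS2, SPP1, FN1, TGFBI, FBN1 and POSTN, written in capitals as in the count tables. They were found by symbol, and all 10 were present among the 24333 symbols that both tables hold. POSTN was chosen by its fall in counts between WT and knockout 67NR cells, measured in these same libraries. Its values in that line are therefore given as a description, without a test, and support nothing.

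168FARN and 67NR are tumour lines that do not metastasize on their own, and their transcripts were measured in 6 groups of 3 replicates, 18 libraries in all. In each line, a pool of *Kmt2c* KO cells and a pool of *Kmt2d* KO cells were compared with WT cells. KO pools were made by transient transfection of Cas9 with sgRNAs against the first exon of the gene, followed by sorting, so that each genotype is a single pool and not a set of independent clones. Editing was not complete in every pool. In the paper, the share of mutant reads was lowest for *Kmt2c* in 67NR, higher for *Kmt2c* in 168FARN and highest for *Kmt2d* in both lines. It reports the proteins as reduced. The 168FARN WT libraries come from cells that received a control sgRNA, whereas the 67NR WT libraries are named WT only. Whether the 67NR WT cells were also transfected and sorted is not given. In that line, effects of the knockout and of transfection, sorting or the single pool cannot be told apart. All groups grew in the same serum-containing medium without other treatment. Replicates were collected about a passage apart, so p-values measure the spread between collections of the same pool.

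Matricellular proteins are secreted into the extracellular matrix, where they bind collagen, fibronectin, growth factors and integrins, and they act more as signals than as scaffold. Periostin binds integrins and tenascin C and is best known from stroma and from metastatic niches. Tenascin C (TNC), SPARC, its relative SPARCL1, the thrombospondins THBS1 and THBS2 and osteopontin (SPP1) belong to the same class. Fibronectin (FN1) and fibrillin 1 (FBN1) are the structural fibres to which many of them attach, and TGFBI is the closest relative of periostin. KMT2C and KMT2D are the enzymes that place monomethylation on histone H3 lysine 4 at enhancers.

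The upstream sequences of POSTN, TNC and SPARC are shown because POSTN was low and TNC and SPARC rose in the 67NR KO pools. THBS1 and FN1, which fell there, are among the genes without a window. Each is the 250 bases before a RefSeq start (GRCm38.p6), found once in mm9, and is printed 5′ to 3′ on the strand of the gene, with the letters TATAAA in capitals where they occur. POSTN is chr3:54164779-54165028 on the plus strand, and its start lies 2 bp from the start of the gene in the mm9 annotation. A second POSTN window, chr3:54162939-54163188, begins from a start 1842 bp from that of the annotation, does not hold TATAAA and is not printed. TNC is chr4:63707971-63708220 on the minus strand, and its start lies 26210 bp from the annotated start of the gene. A second TNC window, chr4:63708050-63708299, holds TATAAA 126 bases before its start and is not printed. SPARC is chr11:55233583-55233832 on the minus strand.
POSTN: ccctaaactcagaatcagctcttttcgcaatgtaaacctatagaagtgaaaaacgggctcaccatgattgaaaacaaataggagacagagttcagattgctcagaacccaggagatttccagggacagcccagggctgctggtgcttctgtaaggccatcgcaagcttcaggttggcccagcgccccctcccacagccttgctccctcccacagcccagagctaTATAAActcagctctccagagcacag
TNC: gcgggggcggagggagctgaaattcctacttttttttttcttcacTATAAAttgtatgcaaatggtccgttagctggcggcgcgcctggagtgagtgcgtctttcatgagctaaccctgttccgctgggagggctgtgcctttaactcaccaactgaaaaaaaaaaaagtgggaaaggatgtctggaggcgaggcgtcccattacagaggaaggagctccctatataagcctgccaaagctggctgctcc
SPARC: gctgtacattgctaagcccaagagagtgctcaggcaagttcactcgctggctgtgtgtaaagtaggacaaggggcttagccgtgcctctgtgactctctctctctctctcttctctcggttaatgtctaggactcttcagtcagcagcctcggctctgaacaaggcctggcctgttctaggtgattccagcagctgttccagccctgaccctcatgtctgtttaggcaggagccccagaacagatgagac
In the POSTN window, TATAAA begins 26 bases before the start. In the printed TNC window it begins 205 bases before the start, and the SPARC window does not hold these letters. Only the exact letters were searched, so that close variants, such as that near the 3′ end of the TNC window, are not marked. TATAAA, searched on both strands, was found in 12.4% of 32851 RefSeq windows of this length. GGGCGG, also searched on both strands, was found in 32.7% of them and once in the TNC window, and it was not in the POSTN or SPARC window. Windows were found for 7 of the 10 genes. The others are SPARCL1, THBS1 and FN1.

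In 168FARN, 14359760 to 43427382 counts fell on genes per library, and in 67NR 40951775 to 79251530. Between 91.2% and 96.2% of the counts from 1 to 20 were even numbers in the 67NR libraries, against 39.5% to 47.2% in 168FARN, so a count of 67NR may stand for less than 1 independent fragment. Replicate 3 stood apart from replicates 1 and 2 in every group of both lines. Deviations from the group mean correlated between replicates 3 of different genotypes at 0.88 to 0.93 in 168FARN and at 0.66 to 0.83 in 67NR. The replicate number was therefore also fitted as a block, and knockout effects are given with and without it where it changes a call. Called genes had an adjusted p under 0.1 (edgeR's quasi-likelihood test, Benjamini-Hochberg over all genes tested) and changed by more than 0.6 on the log2 scale, in either direction. The mRNAs of the targeted genes did not fall in their own KO pools, where *Kmt2c* had a log2 fold change of -0.18 ± 0.49 (SE) in 168FARN and 0.63 ± 0.14 in 67NR, and *Kmt2d* 0.71 ± 0.36 (adjusted p = 1.0) and 0.22 ± 0.23. The *Kmt2c* mRNA was called higher in 67NR *Kmt2c* KO cells (adjusted p = 0.0067, edgeR). It was also called higher in 67NR *Kmt2d* KO cells (0.80 ± 0.14, adjusted p = 0.0031). With the block, the *Kmt2d* mRNA of 168FARN *Kmt2d* KO cells was called higher (0.66, adjusted p = 0.0062). Small edits in an exon need not lower an mRNA, so these values do not check the labels.

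POSTN was well above background in 67NR WT cells alone among the 6 groups. The gene lies on the plus strand of chromosome 3 of mm9, from 54165031 to 54194961. In 67NR WT cells it had 60.5, 69.3 and 94.5 CPM (the count scaled to a common library size, with TMM factors over all 18 libraries together), from 5123, 4718 and 4117 counts. In *Kmt2c* KO cells the counts were 2, 0 and 6, or 0.0261, 0 and 0.141 CPM. In *Kmt2d* KO cells they were 6, 7 and 6, or 0.111, 0.129 and 0.151 CPM. Every WT library was thus far above every KO library, while the levels of the 2 KO pools overlapped.

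Over the 3 replicates, the POSTN level of 67NR WT cells was 1642 times that of *Kmt2c* KO cells (95% interval 833 to 3804) and 555 times that of *Kmt2d* KO cells (356 to 923). These exact binomial intervals cover counting error only. They do not allow for the choice of POSTN by this fall and are a description. Of the 8 counts of *Kmt2c* KO cells, 6 came from replicate 3. Without that library, 2 counts remained and the ratio was 5053 (1399 to 41732). Without *Kmt2c* KO replicate 2, which had none, it was 1060 (538 to 2456). With counts halved, since most were even, they widened to 641 to 6029 and 309 to 1283. In bulk RNA, a smaller share of POSTN-expressing cells and less POSTN mRNA per cell cannot be told apart. In the paper, the *Kmt2c* KO pool of 67NR had the lowest share of mutant reads. How unedited cells bear on its POSTN level was not tested.

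In 168FARN, POSTN had a count of 0 in 8 of 9 libraries, and the *Kmt2d* KO replicate 2 had 3 counts (0.215 CPM). A count of 0 still allows up to 3 counts, which in those 8 libraries is 0.071 to 0.131 CPM. The 67NR WT level was at least 845-fold higher than that floor, set per library, in 168FARN WT cells. POSTN was too low in 168FARN for any test of a knockout effect. Ordered by level, 67NR WT cells stood alone at 74.8 ± 17.7 CPM (SD, n = 3), followed by 67NR *Kmt2d* KO at 0.13 ± 0.02. The next groups, 168FARN *Kmt2d* KO at 0.0715 ± 0.124 and 67NR *Kmt2c* KO at 0.0556 ± 0.0749, lay within their spread of each other and of the 2 groups at 0.

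**Figure D1:**
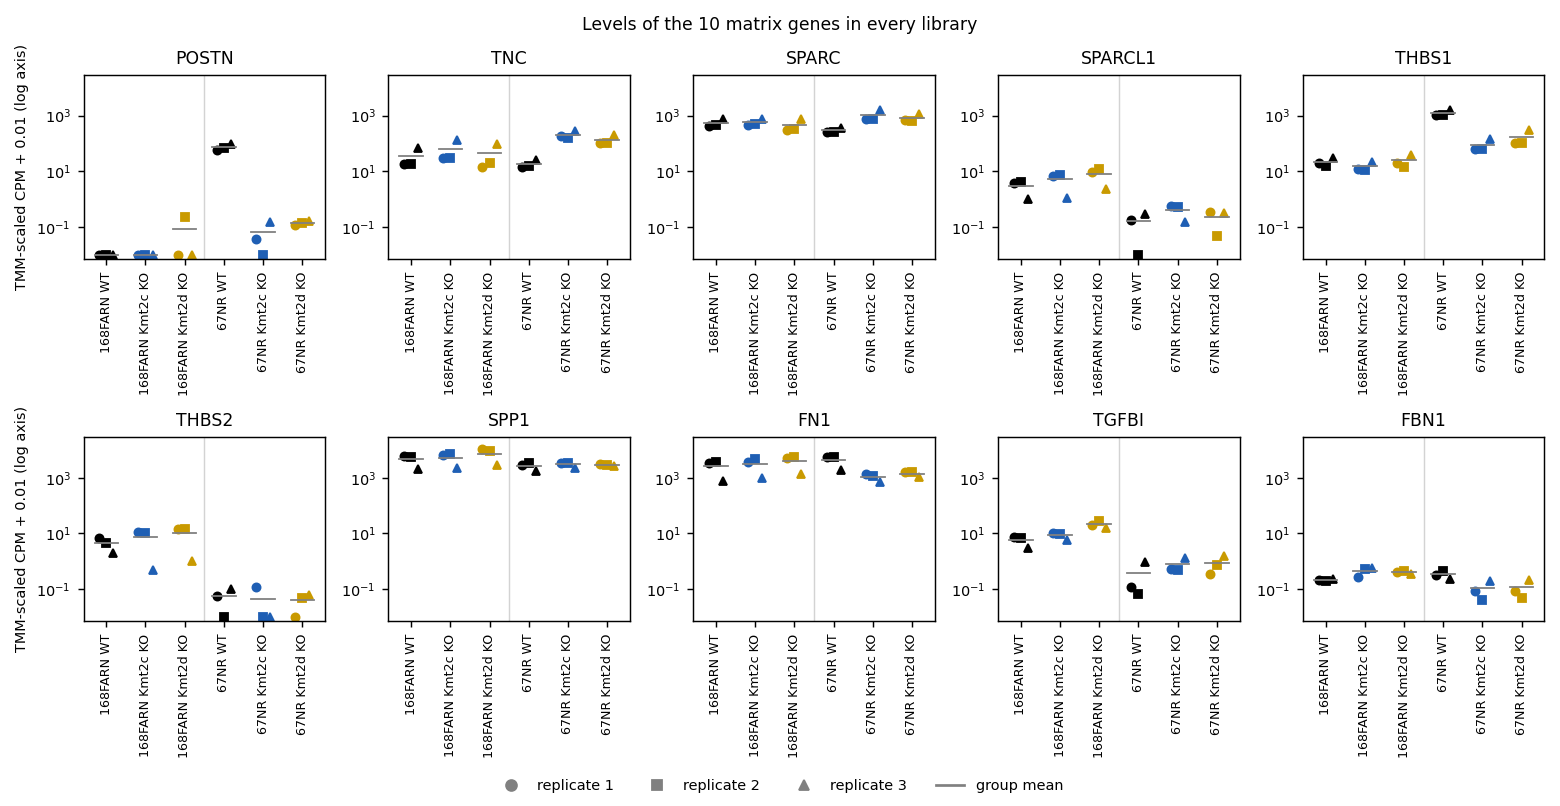
Level of each of the 10 genes in every library, as TMM-scaled CPM plus 0.01 on a log axis, with the libraries of the 6 groups side by side, 1 marker shape per replicate and a line at the group mean. POSTN sits at 60.5 to 94.5 CPM in 67NR WT cells and at or below 0.215 CPM elsewhere, THBS1 is highest in 67NR WT cells, and triangles (replicate 3) stand apart for TNC, FN1 and SPP1.

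The mm9 neighbours of POSTN that were expressed in 67NR, 302.1 to 497.3 kb away, did not share its difference between WT and KO cells. TRPC4, whose end lies 42.6 kb before POSTN, and FREM2, 703.8 kb before it, had 0 counts in all 67NR libraries. Neither could therefore show a fall. UFM1, a ubiquitin-like modifier gene 497.3 kb before POSTN, was at 111 ± 24.6 CPM (SD, n = 3) in WT cells. Its levels after *Kmt2c* and *Kmt2d* KO were 101 ± 9.03 and 120 ± 24.3 CPM. On the other side, SUPT20 at 302.1 kb, EXOSC8 at 337.6 kb and ALG5 at 344.5 kb were expressed in all 9 libraries. None of these 4 expressed neighbours was called in either KO, and the nearest to the threshold was ALG5 in *Kmt2c* KO cells (log2 fold change -0.44 ± 0.17, adjusted p = 0.076), which was below the fold threshold.

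The 5 genes whose levels followed POSTN most closely over the 9 67NR libraries, among the 13641 genes compared, were FOXF1, MOXD1, ACOT1, CMTM8 and MFAP3L, with Pearson correlations of log2(CPM + 1) from 0.9946 to 0.9966. These values rest mostly on the gap between WT and KO libraries and are a description. FOXF1, a forkhead transcription factor of mesenchyme, was at 4.33 to 6.31 CPM in 67NR WT cells and at no more than 0.201 CPM in the KO pools, but at 44.1 to 48.2 CPM in 168FARN WT cells, where POSTN was at 0. MOXD1, a monooxygenase homologue, had 24.7 to 28.7 CPM in WT libraries and 0.183 to 0.571 CPM in KO libraries, and no counts in 168FARN WT cells. ACOT1 has a near-identical paralogue, so its counts are uncertain. Of the matrix genes, THBS1 had the highest correlation with POSTN (0.94) and TNC the lowest (-0.95), over the same 9 libraries.

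In 67NR, TNC and SPARC rose and THBS1 and FN1 fell in both KO pools. These were 2 of 8 tested genes higher and 2 lower in each KO, POSTN left out and THBS2 too low to test. Over all 13665 genes tested, 17.9% rose and 17.4% fell upon *Kmt2c* KO, and 13.9% rose and 11.6% fell upon *Kmt2d* KO. Counts of 2 among 8 genes are close to such shares and say nothing particular about the group. Both KO pools were compared with the same 3 WT libraries, so that the 2 comparisons are not independent. Those WT libraries are not named as control sgRNA, so knockout and transfection cannot be told apart here. For the 8 genes, median log2 fold changes of 0.68 (*Kmt2c* KO) and 0.45 (*Kmt2d* KO) stood beside -0.02 over all genes in both comparisons.

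THBS1, an inhibitor of angiogenesis that also activates latent TGF-β, showed the largest fall among the tested genes. It had 1074, 1094 and 1615 CPM in 67NR WT cells. The *Kmt2c* KO libraries had 62.9, 64.5 and 147 CPM, and the *Kmt2d* KO libraries 101, 104 and 304 CPM. Every KO value lay below every WT value, and replicate 3 was the highest library in each group. The log2 fold change was -3.71 ± 0.53 (adjusted p = 0.00071) in *Kmt2c* KO and -2.82 ± 0.51 (adjusted p = 0.0042) in *Kmt2d* KO cells.

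FN1, the fibre-forming protein on which much of the matrix assembles, had 5798, 5664 and 1868 CPM in 67NR WT cells. The 3 *Kmt2c* KO libraries had 1363, 1160 and 682 CPM. The *Kmt2d* KO libraries were at 1586, 1617 and 1079 CPM. The groups did not overlap, but WT replicate 3 came close to the KO levels. FN1 fell by 1.97 on the log2 scale (SE 0.44, adjusted p = 0.0076) in *Kmt2c* KO cells and by 1.56 (SE 0.43, adjusted p = 0.031) in *Kmt2d* KO cells. Without WT replicate 1 the log2 fold change upon *Kmt2d* KO was -1.32 and was not called (adjusted p = 0.10).

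TNC, a hexameric glycoprotein that loosens cell attachment to fibronectin, went the other way. Its 67NR WT libraries had 14.8, 16.1 and 24.8 CPM. The *Kmt2c* KO libraries had 179, 163 and 285 CPM and the *Kmt2d* KO libraries 105, 106 and 204 CPM, all above WT. The log2 fold changes were 3.57 ± 0.36 (adjusted p = 9.4e-05) and 2.97 ± 0.36 (adjusted p = 0.00042). SPARC, a collagen-binding glycoprotein, was abundant in WT cells with 257, 266 and 353 CPM and higher in KO cells, with 757, 762 and 1571 CPM after *Kmt2c* KO and 685, 640 and 1187 CPM after *Kmt2d* KO. Its log2 fold changes were 1.90 ± 0.35 (adjusted p = 0.0029) and 1.59 ± 0.35 (adjusted p = 0.010), without overlap between WT and KO libraries. With only replicates 1 and 2, the log2 fold changes in *Kmt2c* and *Kmt2d* KO cells were 3.55 and 2.85 for TNC, 1.62 and 1.42 for SPARC, -4.01 and -3.32 for THBS1, and -2.10 and -1.76 for FN1, all of them called.

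SPP1, a phosphoprotein ligand of αv integrins and CD44, was the most abundant of the 10 per exon length in 67NR WT cells, at 1661 CPM per kb against 533 for FN1, 208 for THBS1, 86.8 for SPARC, 9.54 for POSTN and 2.47 for TNC. No change of SPP1 was detected in 67NR. The WT libraries had 2972, 3544 and 1698 CPM, the *Kmt2c* KO libraries 3279, 3457 and 2298 and the *Kmt2d* KO libraries 3227, 2944 and 2749, which overlapped. Its log2 fold changes were 0.22 ± 0.28 (adjusted p = 0.59) and 0.20 ± 0.28 (adjusted p = 0.68). SPP1 lies at 104864137 to 104870069 on chromosome 5 of mm9, in a stretch that also holds SPARCL1 (104508130 to 104543107) and the bone matrix genes DMP1 and IBSP. Unlike SPP1, DMP1 fell in 67NR. It was at 11.9 ± 0.771 CPM (SD, n = 3) in WT cells and at 2.27 ± 0.189 and 1.66 ± 0.889 CPM after *Kmt2c* and *Kmt2d* KO (log2 fold changes of -2.31 ± 0.35, adjusted p = 0.00095, and -2.78 ± 0.36, adjusted p = 0.00064).

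The other members were at or near the detection floor in 67NR. THBS2, the second thrombospondin, had at most 8 counts in a library and was not tested. SPARCL1 was at 0 to 0.548 CPM in all 9 libraries, with log2 fold changes of 1.55 ± 1.12 (adjusted p = 0.33) in *Kmt2c* KO and 0.70 ± 1.14 (adjusted p = 0.72) in *Kmt2d* KO cells. TGFBI had 0.106, 0.0588 and 0.964 CPM in WT cells, 0.522, 0.489 and 1.27 in *Kmt2c* KO cells and 0.351, 0.736 and 1.58 in *Kmt2d* KO cells, with replicate 3 the highest each time. Its log2 fold changes of 1.13 ± 1.01 (adjusted p = 0.43) and 1.35 ± 1.01 (adjusted p = 0.39) were not called, but with the replicate block they were 1.69 (adjusted p = 0.039) and 1.81 (adjusted p = 0.036) and were called. Without WT replicate 3, which holds 42 of the 55 WT counts of TGFBI, they were 3.22 (adjusted p = 0.019) and 3.44 (adjusted p = 0.021), called as well. FBN1 had 26, 30 and 10 counts in WT cells, 6, 2 and 8 in *Kmt2c* KO and 4, 2 and 8 in *Kmt2d* KO cells. Its log2 fold changes were -1.70 ± 0.80 (adjusted p = 0.13) and -1.62 ± 0.80 (adjusted p = 0.19), and with the block -1.91 (adjusted p = 0.069) and -1.85 (adjusted p = 0.097), both called. Without *Kmt2c* KO replicate 3, FBN1 was called in *Kmt2c* KO cells (-2.44, adjusted p = 0.080).

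**Figure D2:**
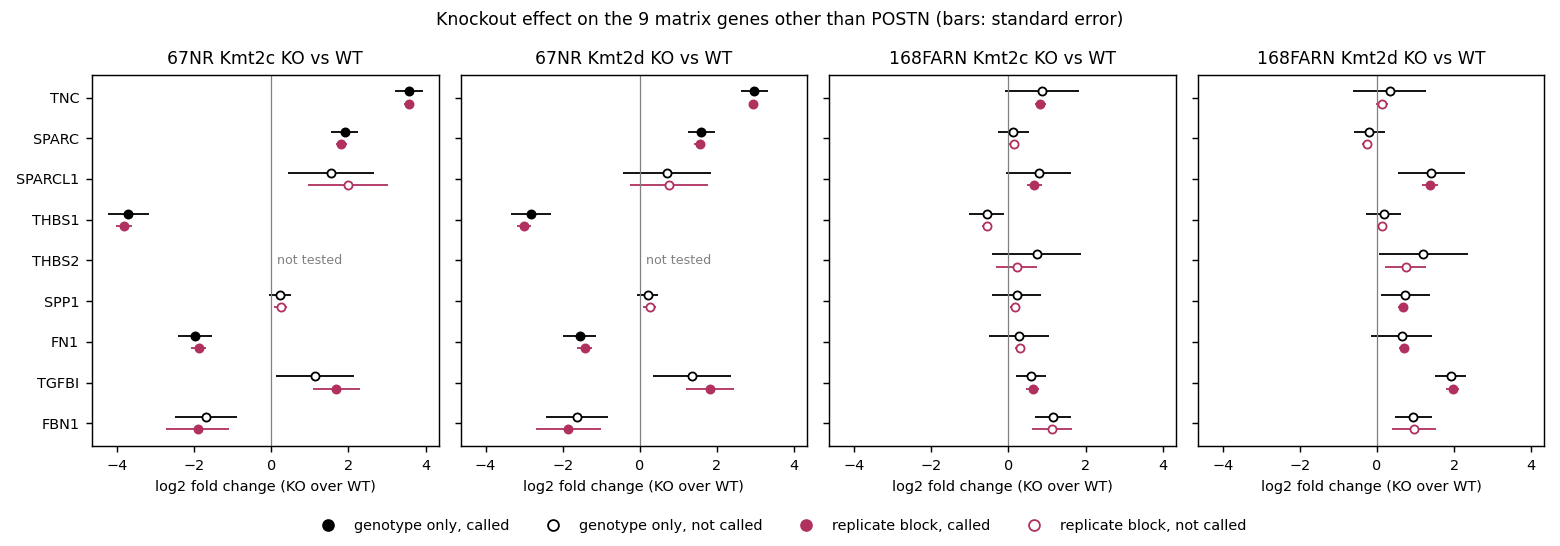
Log2 fold change of KO over WT for the 9 genes other than POSTN, in 4 panels by line and knockout, with standard errors; black points are fits with genotype alone, red points fits with the replicate block, and filled points were called. In 67NR, TNC and SPARC lie right of 0 and THBS1 and FN1 left of it with both fits, and in 168FARN the filled points are all red and right of 0.

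Markers of cell identity moved in 67NR with these genes. The summed level of 7 epithelial markers (EPCAM, CDH1 and keratins) was 2098 to 3425 CPM in WT, 433 to 760 in *Kmt2c* KO and 733 to 1529 in *Kmt2d* KO libraries, and KRT5 was at 0 throughout. That of 8 fibroblast markers was 14 to 20.5 CPM in WT, 132 to 221 in *Kmt2c* KO and 98.4 to 150 in *Kmt2d* KO libraries. PDGFRA made up most of it, at a mean of 13 CPM in WT cells, 176 after *Kmt2c* KO and 119 after *Kmt2d* KO. COL1A1 of the same list was at 2.35 CPM in WT cells, 1.34 after *Kmt2c* KO and 2.1 after *Kmt2d* KO. THY1 had no counts in WT or *Kmt2c* KO cells, and COL3A1 and FAP stayed below 1 CPM. The 6 haematopoietic markers together reached at most 3.72 CPM in 67NR, and the 5 endothelial markers at most 2.5 CPM. In 168FARN, EPCAM and KRT5 had no counts and KRT8 was the 1 epithelial marker above 1 CPM. Their part in the changes of the matrix genes was not tested.

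Between the 2 KO pools of 67NR, TNC and THBS1 were called with the replicate block and not without it. Without it, no tested matrix gene was called between *Kmt2c* KO and *Kmt2d* KO cells (edgeR; 0 of 8 also at an unadjusted p under 0.05, and 0 with DESeq2). The share over all genes was 1.41%, so that a count of 0 among 8 genes says nothing particular about them. At an unadjusted p under 0.05 there were 1494 of 13665 genes (edgeR), and DESeq2 called 597. With the replicate block 2 of 8 were called, against 7.29% of all genes. The *Kmt2c* KO pool then had less THBS1 (log2 difference -0.82, adjusted p = 0.021) and more TNC (0.63, adjusted p = 0.0081). Within replicates 1, 2 and 3 the log2 ratio of *Kmt2c* KO to *Kmt2d* KO was -0.68, -0.69 and -1.05 for THBS1 and 0.77, 0.62 and 0.48 for TNC, so that each replicate showed the direction.

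In 168FARN, none of the 9 genes was called in either KO when genotype was the only factor (edgeR; at an unadjusted p under 0.05 there was 1 of 9 in each KO, FBN1 and TGFBI respectively). DESeq2 called 0 in *Kmt2c* KO and 1, TGFBI, in *Kmt2d* KO cells. Over all 12253 genes tested, 725 and 647 had an unadjusted p under 0.05 (edgeR), and DESeq2 called 288 and 248. With edgeR, few of the 12253 genes tested were called at all in this line, 0.359% upon *Kmt2c* KO and 0.286% upon *Kmt2d* KO. The spread within a genotype was dominated by replicate 3. Its TNC level was 3.96 times the mean of replicates 1 and 2 in WT cells, 4.38 times after *Kmt2c* KO and 5.94 times after *Kmt2d* KO. In the same order of genotypes, the ratio for FN1 was 0.21, 0.23 and 0.263, for SPP1 0.353, 0.321 and 0.296, and for THBS2 0.359, 0.0431 and 0.0693. SPARCL1 and TGFBI were also lower, and SPARC and THBS1 higher, in replicate 3 of every genotype. In 67NR, TNC, SPARC and THBS1 were likewise higher and SPP1 and FN1 lower in replicate 3 of each genotype.

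With the replicate block, which compares genotypes within a replicate number, 3 of the 9 genes were higher in 168FARN *Kmt2c* KO cells and 4 in *Kmt2d* KO cells, and none was lower. Over all genes, 3.66% and 2.73% were then called higher and 3.57% and 3.17% lower. With only replicates 1 and 2, 3 and 5 of 9 were called higher, against 7.98% and 5.34% of all genes, and again none was lower. Over all genes, 800 and 690 of 12285 were then called lower. In both settings a count of 0 lower among 9 genes is close to such shares and says nothing particular about them.

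TGFBI, an adhesion protein named for its induction by TGF-β, had the largest difference in 168FARN. It had 7.29, 6.84 and 3.10 CPM in WT cells, 10.3, 9.83 and 5.79 in *Kmt2c* KO cells and 20.6, 27.5 and 15.8 in *Kmt2d* KO cells. Every *Kmt2d* KO library was above every WT library, while *Kmt2c* KO and WT libraries overlapped. For *Kmt2d* KO the log2 fold change was 1.91 ± 0.40 with an adjusted p of 0.17, and 1.96 with an adjusted p of 3.5e-05 with the block. For *Kmt2c* KO it was 0.59 ± 0.39 (adjusted p = 1.0), and 0.63 (adjusted p = 0.034) with the block. Between the 2 KO pools TGFBI differed by -1.32 ± 0.39 (adjusted p = 0.53), and by -1.33 (adjusted p = 0.00055) with the block.

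SPARCL1, a counter-adhesive relative of SPARC, had 3.93, 4.12 and 0.994 CPM in 168FARN WT cells. It had 6.75, 7.61 and 1.12 CPM after *Kmt2c* KO and 9.42, 11.9 and 2.3 CPM after *Kmt2d* KO. It was not called without the block (0.78 ± 0.85 and 1.41 ± 0.87, adjusted p = 1.0 for both). With it, the log2 fold changes were 0.67 (adjusted p = 0.048) and 1.37 (adjusted p = 0.0015). TNC, which was called in 168FARN *Kmt2c* KO cells under the block, had 18, 17.7 and 70.6 CPM in WT and 30.9, 30.2 and 134 CPM in these cells. The ratio was alike in each replicate, with log2 ratios of 0.78, 0.77 and 0.92. TNC gave 0.87 ± 0.96 (adjusted p = 1.0) without and 0.83 (adjusted p = 0.0042) with the block in *Kmt2c* KO cells. In *Kmt2d* KO cells it had 14.0, 19.4 and 99.2 CPM and was called by neither fit (block adjusted p = 0.64).

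FN1 and SPP1, the most abundant of the genes in 168FARN, were higher in *Kmt2d* KO than in WT cells within each replicate. FN1 had 3314, 3781 and 744 CPM in WT and 5208, 5413 and 1397 CPM in *Kmt2d* KO cells, a log2 fold change of 0.64 ± 0.79 (adjusted p = 1.0) without and 0.71 (adjusted p = 0.0053) with the block. SPP1 had 5969, 5647 and 2053 CPM in WT and 10582, 8827 and 2873 CPM in *Kmt2d* KO cells, or 0.73 ± 0.64 (adjusted p = 1.0) without and 0.67 (adjusted p = 0.010) with it. FN1 thus rose in 168FARN *Kmt2d* KO cells under the block and fell in 67NR *Kmt2d* KO cells under both fits.

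THBS2 was not called with the block, and its replicates went different ways. In *Kmt2c* KO cells its log2 ratio to WT was 0.66, 1.25 and -2.02 in replicates 1, 2 and 3, and in *Kmt2d* KO cells 1.12, 1.68 and -0.97. With only replicates 1 and 2 it was called in both (0.95, adjusted p = 0.0025, and 1.41, adjusted p = 0.00025). THBS1 had 19.9, 14.9 and 31.1 CPM in WT, 12.3, 11.3 and 21.0 in *Kmt2c* KO and 19.6, 14.5 and 39.6 in *Kmt2d* KO cells. Its log2 fold change in *Kmt2c* KO cells was -0.56 ± 0.45 (adjusted p = 1.0), and with the block -0.55 (adjusted p = 0.019), below the fold threshold. SPARC was at 413, 446 and 736 CPM in WT cells and at 306 to 764 CPM in the KO libraries, and no difference was called. FBN1 had 6 to 20 counts in every library and no called difference.

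Between the 2 KO pools of 168FARN, no gene of the 9 was called (edgeR; 1 of 9 at an unadjusted p under 0.05; DESeq2 called 1, TGFBI), against 0.253% of all genes. At an unadjusted p under 0.05 there were 616 of 12253 genes (edgeR), and DESeq2 called 235. With the replicate block 4 of 9 were called, against 5.33% of all genes. TNC was higher in *Kmt2c* KO cells (log2 difference 0.70, adjusted p = 0.014), and TGFBI, THBS1 (-0.68, adjusted p = 0.010) and SPARCL1 (-0.69, adjusted p = 0.052) were lower there than in *Kmt2d* KO cells. The directions of TNC and THBS1 were those of the blocked comparison in 67NR.

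**Figure D3:**
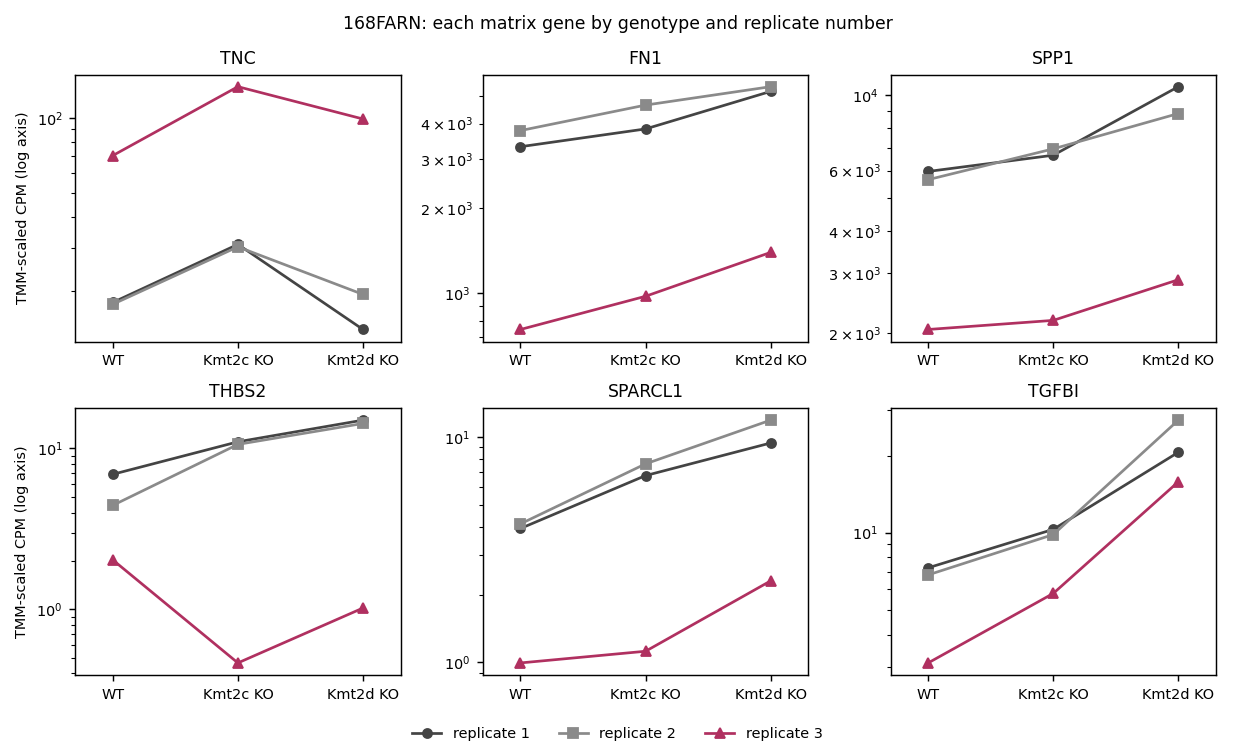
TMM-scaled CPM (log axis) of 6 matrix genes in the 3 genotypes of 168FARN, with a line joining the libraries of the same replicate number. Replicate 3 lies above the others for TNC and below them for FN1, SPP1, THBS2, SPARCL1 and TGFBI, while the lines run in the same direction from WT to *Kmt2d* KO for FN1, SPP1, SPARCL1 and TGFBI.

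Whether the knockout effects differed between the lines was tested as an interaction over all 18 libraries. The counting of the reads, the control sgRNA and the share of mutant reads also differed between the lines. These and the line itself cannot be told apart in this test. For *Kmt2c*, 3 of the 9 genes were called, against 16.0% of 13882 genes tested, and for *Kmt2d* 2 of 9, against 10.6%. The log2 fold change of THBS1, which fell in 67NR and was not called in 168FARN, was lower in 67NR by a difference of -3.22 ± 0.71 (adjusted p = 0.0070) for *Kmt2c* and -3.06 ± 0.71 (adjusted p = 0.014) for *Kmt2d*. That of SPARC, which rose in 67NR and was not called in 168FARN (0.12 ± 0.40 and -0.20 ± 0.40), was higher in 67NR by 1.70 ± 0.56 (adjusted p = 0.063) and 1.73 ± 0.56 (adjusted p = 0.079). FBN1 was called for *Kmt2c* at -2.91 ± 0.94 (adjusted p = 0.057) on few counts. It was lower in 67NR and higher in 168FARN *Kmt2c* KO cells, and neither was called without the block. Leaving out single libraries ended the call in 5 of 12 fits for SPARC with *Kmt2c*, in 6 of 12 with *Kmt2d* and in 8 of 12 for FBN1, with adjusted p up to 0.14, 0.18 and 0.14, and in none for THBS1.

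With the replicate block 5 of 9 genes were called in each interaction, against 34.6% of all genes for *Kmt2c* and 28.4% for *Kmt2d*. TNC and FN1 were then called as well. For TNC the difference was 2.62 ± 1.06 (adjusted p = 0.14) without and 2.66 (adjusted p = 1.3e-08) with the block for *Kmt2c*, and 2.58 ± 1.06 (adjusted p = 0.19) and 2.75 (adjusted p = 1.5e-08) for *Kmt2d*. For FN1 it was -2.33 ± 0.94 (adjusted p = 0.14) and -2.27 (adjusted p = 1.4e-06) for *Kmt2c*, and -2.26 ± 0.94 (adjusted p = 0.19) and -2.20 (adjusted p = 3.3e-06) for *Kmt2d*. FBN1 was called for *Kmt2d* with the block (-2.84, adjusted p = 0.043), and without it had -2.61 ± 0.95 (adjusted p = 0.13). For SPP1, the most abundant of the genes per exon length, the differences were -0.07 ± 0.72 and -0.59 ± 0.72 and were not called by either fit.

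The lines also differed before any knockout. Between 67NR WT and 168FARN WT cells, 4 of 9 genes were called, against 39.2% of all genes. The replicate block is not used for this comparison, since collections of the 2 lines are not paired and the block takes out the spread between them. THBS1 was higher in 67NR, with 1261 ± 307 CPM (SD, n = 3) against 22.0 ± 8.29 in 168FARN (log2 difference 5.84 ± 0.61, adjusted p = 1.7e-06). After its fall in the 67NR KO pools, THBS1 was still at 91.3 ± 47.9 and 170 ± 116 CPM there, above the 168FARN groups. THBS2, SPARCL1 and TGFBI were lower in 67NR, by -6.62 ± 1.45 (adjusted p = 0.0019), -4.39 ± 1.11 (adjusted p = 0.0054) and -4.01 ± 0.84 (adjusted p = 0.0014), where they were close to absent. SPARC was at 292 ± 53.1 CPM in 67NR WT and 532 ± 177 in 168FARN WT cells (-0.86 ± 0.40, adjusted p = 0.10, not called), and DESeq2 called it (-0.88, adjusted p = 0.064). In the 67NR KO pools SPARC reached 1030 ± 469 and 837 ± 304 CPM. TNC, SPP1 and FN1 were not called, at -0.93 ± 0.75 (adjusted p = 0.36), -0.73 ± 0.51 (adjusted p = 0.29) and 0.77 ± 0.66 (adjusted p = 0.40), and their WT libraries overlapped between the lines. Line, counting of the reads and the control sgRNA cannot be told apart in this comparison.

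Other genes of the same pathways were followed as 4 lists written with earlier results of these data known. In 67NR *Kmt2c* KO cells, 14 of 22 other matricellular genes were tested, of which 2 were higher and 7 lower, with a median log2 fold change of -1.19 against -0.02 for all genes. In *Kmt2d* KO cells 2 were higher and 5 lower, with a median of -0.72. The counts of this and the next 3 lists stand beside 17.9% higher and 17.4% lower over all genes upon *Kmt2c* KO, and 13.9% and 11.6% upon *Kmt2d* KO, and nothing particular to a list was tested. WISP1 (CCN4), a CCN family growth regulator, fell in *Kmt2c* KO cells from 62.4 to 1.12 CPM (log2 fold change -5.71 ± 0.49, adjusted p = 3.6e-05) and less in *Kmt2d* KO cells, to 7.12 CPM (-3.05 ± 0.43, adjusted p = 0.0011). WISP1 also differed between the KO pools (-2.66 ± 0.44, adjusted p = 0.036). SMOC1, a SPARC-related basement membrane protein, rose from 1.58 CPM to 22.6 and 14.2 CPM (3.92 ± 0.29, adjusted p = 1.5e-05, and 3.24 ± 0.28, adjusted p = 5.8e-05). TNXB, a tenascin like TNC, rose in *Kmt2c* KO cells from 0.422 to 4.23 CPM (3.39 ± 0.44, adjusted p = 0.00039). IBSP, the bone sialoprotein gene in the same stretch of chromosome 5 as SPP1, fell from 1.67 to 0.0335 CPM in *Kmt2d* KO cells (-5.68 ± 1.12, adjusted p = 0.0064). After *Kmt2c* KO it was at 0.108 CPM. In 168FARN, 10 of the 22 were tested and none was called in either KO without the block (1 of 10 at an unadjusted p under 0.05 in each). Over all genes, 725 and 647 of 12253 had an unadjusted p under 0.05 (edgeR). With the block, WISP2 (CCN5) was higher and CYR61 (CCN1) and MGP were lower in *Kmt2c* KO cells (1.35, -0.75 and -3.24), and TNXB was higher in *Kmt2d* KO cells (0.85). Over all genes of 168FARN, the block called 3.66% higher and 3.57% lower upon *Kmt2c* KO, and 2.73% and 3.17% upon *Kmt2d* KO. The genes that only the block called in 168FARN are named here and in the next lists after their values were seen.

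Of 18 fibulin and microfibril genes, the partners of FBN1 and FN1 in elastic fibres, 11 were tested in 67NR. In *Kmt2c* KO cells 5 were higher and 4 lower (median -0.22), and in *Kmt2d* KO cells 3 and 3 (median -0.34). EMILIN1 rose from 0.96 to 8.47 and 5.36 CPM in *Kmt2c* and *Kmt2d* KO cells (3.21 ± 0.32, adjusted p = 7.9e-05, and 2.54 ± 0.31, adjusted p = 0.00050). FBLN1, fibulin 1, rose from 1.97 to 9.34 and 8.92 CPM (2.32 ± 0.27, adjusted p = 0.00022, and 2.25 ± 0.27, adjusted p = 0.00046). LTBP4, which holds latent TGF-β in microfibrils, fell from 28.8 to 5.58 and 9.92 CPM (-2.28 ± 0.26, adjusted p = 0.00020, and -1.46 ± 0.26, adjusted p = 0.0036).

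Among 16 receptors for these ligands, 14 were tested in 67NR, of which 5 were higher and 6 lower in *Kmt2c* KO (median -0.53) and 4 and 4 in *Kmt2d* KO cells (median -0.04). ITGB6, the partner of αv in an epithelial integrin that binds fibronectin, tenascin C and latent TGF-β, fell from 16.1 to 0.732 and 2.67 CPM (-4.36 ± 0.32, adjusted p = 1.5e-05, and -2.51 ± 0.29, adjusted p = 0.00034). ITGB5, the subunit of the αvβ5 integrin that binds periostin, fell from 149 to 58.7 and 55.3 CPM (-1.27 ± 0.15, adjusted p = 0.00020, and -1.36 ± 0.15, adjusted p = 0.00023). ITGA5, the fibronectin receptor subunit, rose from 41.1 to 160 and 113 CPM (2.05 ± 0.19, adjusted p = 5e-05, and 1.54 ± 0.19, adjusted p = 0.00043), while FN1 fell. CD44, a receptor of hyaluronan and osteopontin, rose from 312 to 702 and 642 CPM (1.25 ± 0.14, adjusted p = 0.00016, and 1.12 ± 0.14, adjusted p = 0.00055).

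All 13 TGF-β ligands, receptors and SMAD genes of the list were tested. In 67NR 1 was higher and 6 lower in *Kmt2c* KO (median -0.54) and 1 and 3 in *Kmt2d* KO cells (median -0.45). TGFB2 fell from 44.3 to 2.25 and 5.04 CPM (-4.20 ± 0.72, adjusted p = 0.0019, and -3.05 ± 0.68, adjusted p = 0.012), and the coreceptor ENG from 45.0 to 10.1 and 15.3 CPM (-2.08 ± 0.19, adjusted p = 5.1e-05, and -1.47 ± 0.19, adjusted p = 0.00061). TGFBR3, betaglycan, rose from 14.4 to 127 and 106 CPM (3.22 ± 0.39, adjusted p = 0.00026, and 2.96 ± 0.38, adjusted p = 0.00068). In 168FARN none of the tested fibulin and microfibril, receptor or TGF-β genes was called in either KO without the block. At an unadjusted p under 0.05 these were 3, 2 and 0 genes in *Kmt2c* KO and 2, 2 and 0 in *Kmt2d* KO cells. Over all genes they were 725 and 647 of 12253 (edgeR). With the block, of 10, 10 and 13 genes tested, 1, 2 and 0 were higher and 1, 0 and 1 lower upon *Kmt2c* KO. These were LTBP2 (0.91), SDC1 (0.77) and STAB1 (2.14) higher, and MFAP5 (-0.83) and ENG (-0.79) lower. Upon *Kmt2d* KO, 2, 2 and 0 were higher and 1, 0 and 0 lower. FBLN2 (0.66), EMILIN2 (1.27), SDC4 (0.66) and STAB1 (1.30) were the higher genes and MFAP5 (-0.84) the lower one.

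**Figure D4:**
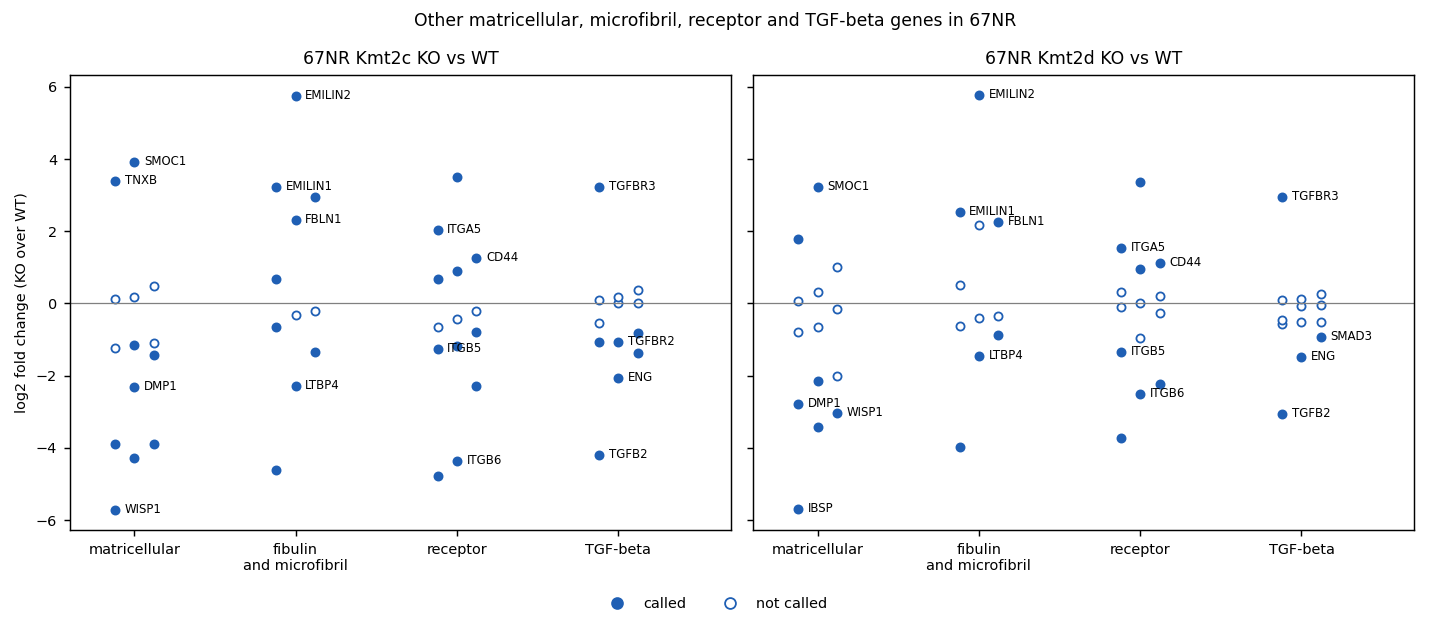
Log2 fold change of KO over WT in 67NR for the tested genes of the 4 lists, 1 point per gene, filled where called, with the up to 4 called genes of smallest p labelled in each list. Called genes lie on both sides of 0 in every list, such as SMOC1 at 3.92 and WISP1 at -5.71 among the matricellular genes of *Kmt2c* KO cells.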

How the data were processed

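RNA was sequenced from 18 libraries, 3 per genotype and line. Per the labels and the paper's methods, the authors made strand-specific poly(A) libraries, aligned read pairs to mm9 with STAR in VIPER and deposited raw counts per gene symbol, without normalization. Whether counting used strand is not given in the sources used here, so overlapping genes are uncertain. The 67NR table holds some symbols turned into dates, and no such row is named here.

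Counts were fitted with edgeR 4.0.16 (R 4.3.3; robust quasi-likelihood test, TMM, filterByExpr by group with a minimum count of 10), on the 9 libraries of a line with genotype as factor, or on all 18 libraries for differences between lines. P-values were adjusted by Benjamini-Hochberg over all genes tested. DESeq2 1.42.0 was an alternative. Standard errors were derived from each log2 fold change and its F statistic. Levels are CPM after TMM over all 18 libraries. Fold changes are from the fits and not from ratios of these means. The code was tested on simulated counts. Log2 ratios within a replicate used CPM + 0.05, and correlations log2(CPM + 1). Positions are 1-based GENCODE M1 on mm9. Exon lengths are unions of exons. Promoter windows are from RefSeq GRCm38.p6.

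The labels give replicate numbers and do not say that equal numbers of different genotypes share a collection. For its heatmaps, the paper took each collection time as a batch. Replicates 3 of different genotypes deviated together, with correlations of deviations of 0.88 to 0.93 (168FARN) and 0.66 to 0.83 (67NR). For replicates 1 and 2, those within a number (0.75 to 0.85 and 0.49 to 0.62) were like those across numbers (0.72 to 0.82 and 0.40 to 0.74). The values thus set replicate 3 apart and do not show a pairing of replicates 1 and 2, which the block takes as given. The fit without the block is the reported one, as genotype is the factor in the paper's methods. The genes, lists, thresholds and tests were chosen with earlier results of these data known. Named were all 10 matrix genes and the targeted genes, up to 4 called genes of smallest p per list and comparison, the 5 genes most correlated with POSTN and its 3 nearest genes on either side. Alternatives were DESeq2's size factors, DESeq2, no filter on low counts, the replicate block, only the compared groups, an adjusted p under 0.05 alone and each library left out. Replicates 1 and 2 only, halved 67NR counts and the POSTN ratio without each library were added after seeing the data.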

Additional observations from a re-analysis of the deposited data

Results flagged for a closer look

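A difference between the lines in the response to a knockout, by the interaction test over all 18 libraries, flagged 3 of the matrix genes. Line, counting of the reads, control sgRNA and share of mutant reads cannot be told apart in this test. For THBS1, the log2 fold change in 67NR minus that in 168FARN was -3.22 for *Kmt2c* (adjusted p = 0.0070, edgeR) and -3.06 for *Kmt2d* (adjusted p = 0.014). Over 19 alternatives for each, the adjusted p for THBS1 lay between 2.1e-11 and 0.026 for *Kmt2c* and between 8e-11 and 0.047 for *Kmt2d*. For SPARC this difference was 1.70 for *Kmt2c* (adjusted p = 0.063) and 1.73 for *Kmt2d* (adjusted p = 0.079), with adjusted p from 3.2e-07 to 0.14 and from 1.2e-08 to 0.18 over the alternatives. The SPARC call for *Kmt2c* was lost without 168FARN WT replicate 3, 168FARN *Kmt2c* KO replicate 1, 67NR WT replicate 1 or 2 or 67NR *Kmt2c* KO replicate 3 (1.37 to 1.66). That for *Kmt2d* was lost without 168FARN WT replicate 3, 168FARN *Kmt2d* KO replicate 1 or 2, 67NR WT replicate 1 or 2 or 67NR *Kmt2d* KO replicate 3 (1.44 to 1.66). FBN1 differed by -2.91 for *Kmt2c* (adjusted p = 0.057; 0.010 to 0.14 over the alternatives), on 2 to 30 counts per library, and was not called without any 1 of the 168FARN WT replicates 1, 2 and 3, the 168FARN *Kmt2c* KO replicates 2 and 3, 67NR WT replicate 2 and the 67NR *Kmt2c* KO replicates 1 and 2 (-2.85 to -2.47), nor without the filter on low counts (-2.89). The groups of 3 were too small to look for single outlying libraries.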

How the results depend on the processing

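Of the 1186 fold changes refitted under an alternative, 1038 kept their direction and their side of the threshold. Levels by total counts in place of TMM moved 0 of 60 group means beyond 1 SD, and leaving out a library 0 of 180. With the replicate block, the genes called among the 9 other than POSTN numbered 3 (168FARN *Kmt2c* KO), 4 (168FARN *Kmt2d* KO), 4 (168FARN, between the KO pools), 2 (67NR, between the KO pools), 5 and 5 (differences between lines, *Kmt2c* and *Kmt2d*) and 8 (WT lines, where the block takes out the spread between unpaired collections, so that this count is no support). With replicates 1 and 2 only, they numbered 3, 5, 2, 2, 7, 6 and 7 in the same order, and 7 in 67NR *Kmt2c* KO cells. Over all genes, 1780, 1346 and 1141 of 12285 were then called in 168FARN and 1743 of 13851 between the KO pools of 67NR. The rest of that order had 5303, 4539 and 7584 of 13971, and 67NR *Kmt2c* KO cells had 6126 of 13851. In 67NR *Kmt2c* KO and *Kmt2d* KO cells, the block called 6 and 6 of 8 tested genes, against 4 and 4 without it. Over all genes, the block then called 5637 and 4475 of 13665. With replicates 1 and 2 only, 6 of 8 were called in 67NR *Kmt2d* KO cells, against 4967 of 13851 genes. DESeq2 called 1 gene in 168FARN *Kmt2d* KO cells, 1 between its KO pools, and 5 and 5 in the differences between lines, where an adjusted p under 0.05 alone left 1 and 1, THBS1. Over all genes, DESeq2 called 248 and 235 of 12253 in the 168FARN comparisons and 2840 and 2005 of 13882 in the differences between lines. An adjusted p under 0.05 alone (edgeR) held for 1596 and 1013 of 13882 genes there. Leaving out each library gave 1 to 5 genes for the *Kmt2c* difference between lines and 1 to 3 for *Kmt2d*, 4 to 5 in 67NR *Kmt2c* KO and 3 to 5 in 67NR *Kmt2d* KO cells, 4 to 5 between the WT lines, and 0 in 168FARN and between the KO pools of 67NR. Of 14119 to 14211 genes tested, these fits called 1702 to 2611 and 1047 to 1569 for the differences between lines. Between the WT lines they called 4710 to 5926. Of 13902 to 14037 genes, 4222 to 5593 were called in 67NR *Kmt2c* KO and 2796 to 4102 in *Kmt2d* KO cells. Between these pools it was 42 to 210, and in 168FARN 0 to 57 of 12429 to 12511. The *Kmt2c* difference between lines fell to 1 of the 9 genes without 168FARN WT replicate 3 or 67NR WT replicate 2. That for *Kmt2d* fell to 1 without 168FARN WT replicate 3, 168FARN *Kmt2d* KO replicate 1 or 2, or 67NR WT replicate 1 or 2. Of 24 lost calls, 23 were in the differences between lines, and the other was FN1 in 67NR *Kmt2d* KO cells. The causes were not tested.

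The sign changed in 42 refits, 0 of them for a gene called in the reported fit. With replicates 1 and 2 only, these were TNC in 168FARN *Kmt2d* KO (-0.08), FBN1 between the KO pools of 168FARN (-0.03) and of 67NR (0.02), SPP1 in 67NR *Kmt2d* KO (-0.00), THBS2 in the *Kmt2c* difference between lines (0.09) and TGFBI in the *Kmt2d* one (0.90). With the block it was SPP1 between the KO pools of 67NR (-0.01). Over leaving out each library, log2 fold changes in 168FARN *Kmt2c* KO ran from -0.22 to 1.89 for TNC, -0.13 to 0.45 for SPARC, -0.12 to 0.59 for SPP1 and -0.15 to 0.71 for FN1. In 168FARN *Kmt2d* KO they ran from -1.07 to 1.33 for TNC, -0.70 to 0.12 for SPARC and -0.34 to 0.52 for THBS1, and between these pools from -0.54 to 1.95 for TNC, -1.02 to 0.08 for THBS2 and -0.77 to 0.07 for FN1. In 67NR, SPP1 ran from -0.03 to 0.43 (*Kmt2c* KO), -0.05 to 0.42 (*Kmt2d* KO) and -0.09 to 0.19 (between them), where SPARC ran from -0.13 to 0.64, TGFBI from -0.79 to 0.47 and FBN1 from -0.82 to 0.74. In the differences between lines, SPP1 ran from -0.35 to 0.39 and TGFBI from -0.06 to 2.52 for *Kmt2c*, and TGFBI from -1.23 to 1.45 for *Kmt2d*. POSTN in 168FARN and THBS2 in 67NR did not pass the filter on low counts.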
